A study of Rattus norvegicus with 12 samples.

Results

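Brain death was compared with a sham operation in rat lung, on 3 BD arrays and 3 sham arrays out of the 12 Affymetrix arrays in the study. The arrays were chosen by their titles, and every probe set with 1 gene symbol was used, which gave 14217 genes. All animals were male wild type Sprague Dawley rats of 250 to 350 g. In BD a 4 Fr Fogarty balloon catheter was placed outside the dura and inflated. Neither group received a drug. The other 6 arrays came from animals given SEW-2871, an agonist of the sphingosine 1-phosphate receptor encoded by S1pr1, intravenously at 0.1 mg/kg, either without brain death (SEW) or 15 min after it (BD/SEW). The labels give no interval between brain death and sampling and no details of the sham operation. Nor do they say whether the SEW animals were sham operated, or number the animals, and each p-value therefore reflects only how far these samples spread, which may be technical in part.

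Brain death follows a rise in intracranial pressure that stops blood flow to the brain. It is known for an early surge of catecholamines, followed by loss of sympathetic tone and of pituitary hormones, and for inflammation in organs that are later donated. In the lung, circulating catecholamines and glucocorticoids act through cyclic AMP and the glucocorticoid receptor, and interferons act through STAT and IRF transcription factors.

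The samples had the markers of lung in every array. The 11 alveolar type 2 markers averaged 12.27, 12.34 and 12.12 in sham and 12.56, 12.36 and 12.33 in BD, on the log2 scale on which all levels are given. Transcripts of other tissues differed far more. The mean of 23 cardiac muscle markers was 10.11, 9.64 and 9.13 in sham and 6.26, 11.07 and 7.09 in BD replicates 1, 2 and 3. BD replicate 2 was thus above all sham arrays, and the other BD arrays were below all of them. Myh6, the alpha myosin heavy chain of heart, was 13.44, 12.75 and 12.08 in sham and 6.57, 13.94 and 9.54 in BD. The mean of 13 adipocyte markers was 9.62, 8.91 and 8.71 in sham and 6.62, 9.15 and 6.81 in BD. Adipoq, the adipocyte hormone adiponectin, was 9.34, 8.04 and 9.07 against 5.13, 8.91 and 5.5. Here too BD replicate 2 had the level of sham. The 6 arrays of animals given the agonist had cardiac means between 5.99 and 7.86 and adipocyte means between 6.73 and 7.41. In bulk tissue fewer cells of a type and less RNA per cell cannot be told apart. The labels do not say whether heart, fat or upper airway was taken with any of the lungs, and this was not tested.

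**Figure D1:**
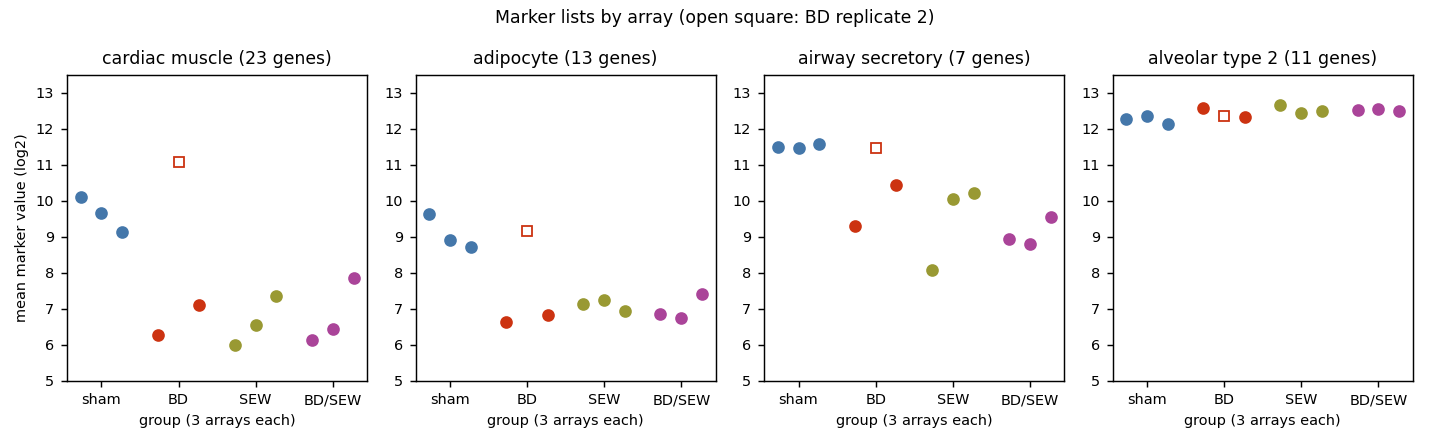
Mean log2 level of 4 marker lists (vertical axis) in each of the 12 arrays, grouped as sham, BD, SEW and BD/SEW along the horizontal axis, 1 point per array; the open square is BD replicate 2. Cardiac and adipocyte means were high in the 3 sham arrays and BD replicate 2 and low in the other 8 arrays, while alveolar type 2 means lay between 12.12 and 12.65 in all arrays.

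Part of the airway secretory markers followed the same arrays. The mean of 7 airway secretory markers was 11.48, 11.45 and 11.57 in sham and 9.3, 11.45 and 10.43 in BD. Bpifa1, a secreted protein of the upper airway epithelium, was 14.29, 14 and 13.6 in sham and 8.41, 14.11 and 10.39 in BD. Scgb1a1, the club cell secretoglobin of the small airways, did not follow and was 14.66, 14.66 and 14.71 against 14.67, 14.64 and 14.77. Nor did the mean of 4 ciliated cell markers, at 8.82, 8.76 and 9.7 in sham and 8.4, 8.81 and 8.99 in BD. Over all probe sets, with or without a symbol, BD replicate 2 correlated at 0.99 with sham replicates 1 and 2. It correlated at 0.985 with BD replicates 1 and 3, which correlated at 0.992 with each other. Sham replicate 3 correlated less, at 0.978 and 0.979 with sham replicates 1 and 2. With BD replicates 1, 2 and 3 it correlated at 0.973, 0.973 and 0.981. No cardiac, adipocyte or airway marker was called with BD replicate 2 included. Without that array 15 of the 23 cardiac, 8 of the 13 adipocyte and 2 of the 7 airway markers passed as lower in BD. Since the array left out is the one that stood apart on these markers, those counts restate the levels above and are no separate evidence.

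With brain death 30 genes rose and 54 fell (limma, adjusted p under 0.05 over all 14217 genes, from a fit of 1 mean per group over all 12 arrays). These were 0.211% and 0.38% of the genes tested, and 84 genes or 0.591% in all. Of the raised genes 9 changed at least 2-fold, and of the lowered genes 26 did. In all 84 called genes the 3 BD arrays lay wholly on one side of the 3 sham arrays, BD replicate 2 included. Such a separation was found in 2231 of all genes (15.7%), 1130 of them higher in BD (7.95%) and 1101 lower (7.74%). Called genes included 18 in a function list, 0 in a cell type list and 66 in neither. The cardiac, adipocyte and airway markers differed between most BD and sham arrays beside every result below, and their part was not tested beyond 2 fits. With the cardiac mean as a covariate 28 genes were called, all of them among the 84, and with the adipocyte mean 11 genes, 4 of them among the 84. All 84 kept their direction with either covariate. A fit of the 6 compared arrays alone called 13 genes (3 raised and 10 lowered), and 72 of the 84 calls were lost in it. Without 1 array the number of genes called was 37 (sham replicate 1), 49 (sham replicate 2), 66 (sham replicate 3), 26 (BD replicate 1), 227 (BD replicate 2) and 37 (BD replicate 3). The number of the 84 still called was 35, 31, 41, 26, 71 and 34 in the same order.

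**Figure D2:**
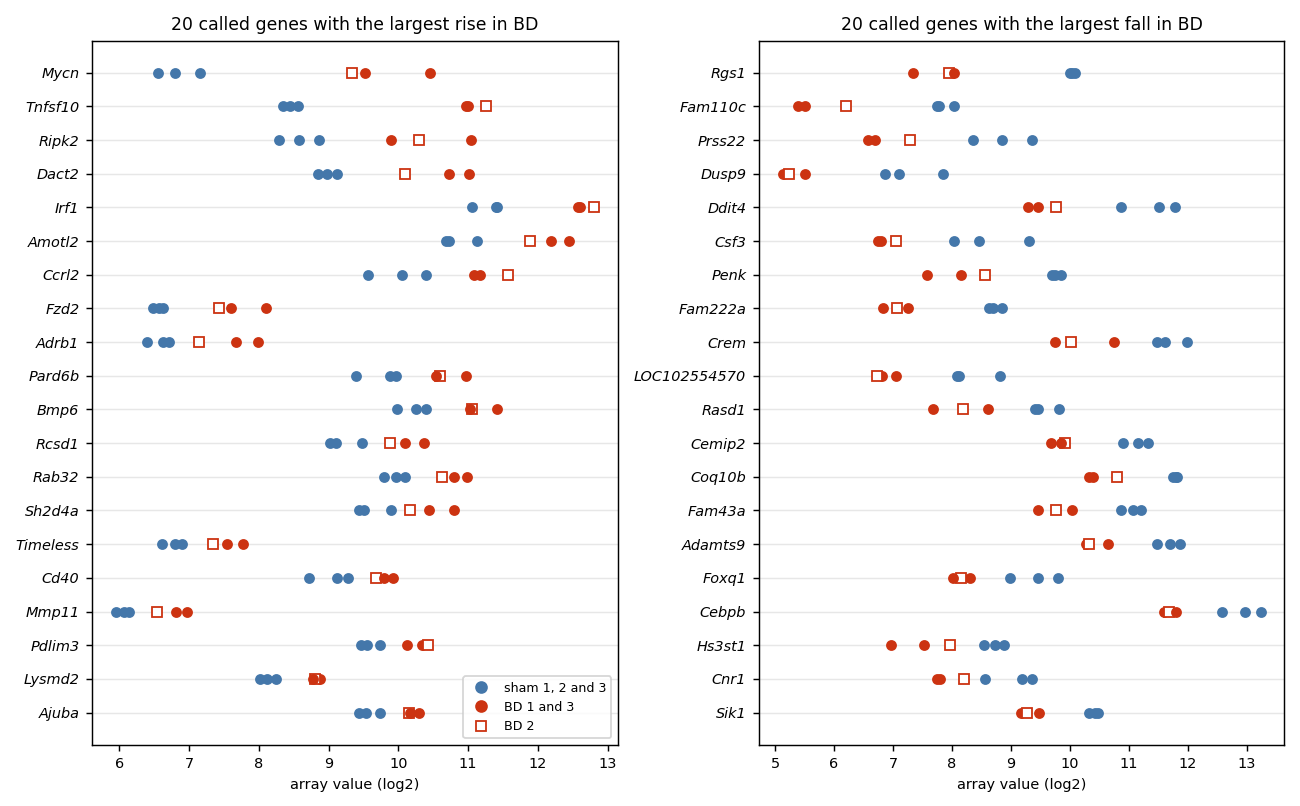
Log2 array values (horizontal axis) of the 20 genes with the largest rise (left) and the 20 with the largest fall (right) among the called genes, 1 point per array. Blue points are the 3 sham arrays, red points BD replicates 1 and 3, and the open square BD replicate 2; in every gene drawn the sham points lie apart from the BD points.

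The largest rise among the called genes was that of Mycn, and the next that of Tnfsf10. Mycn, a MYC-type transcription factor that drives growth, was 6.55, 6.79 and 7.16 in sham and 10.45, 9.34 and 9.52 in BD. It rose 7.66-fold (log2 difference 2.94 ± 0.32 SE, n = 3 per group, limma adjusted p = 0.0037). Its lowest BD array was 2.18 log2 units above its highest sham array. Of the 12 measured members of the MYC family and their partners it alone was called. Myc itself was 10.24 ± 0.2 (SD) in sham and 9.99 ± 0.1 in BD, and Mycl, a further member of the family, differed by 0.19.

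Tnfsf10 encodes TRAIL, a ligand that triggers death receptors. Its levels were 8.44, 8.56 and 8.34 in sham and 10.97, 11.25 and 11 in BD, a rise of 6.18-fold (2.63 ± 0.18, limma adjusted p = 0.00012, the smallest of all genes). The arrays spanned 0.22 log2 units within sham and 0.28 within BD. Among 22 measured death ligands, receptors and caspases no other member was called, and the list's median difference was 0.05. Fas, the receptor of the related Fas ligand, was 8.29, 8.5 and 7.89 against 8.97, 8.85 and 9.04 (0.73 ± 0.22, limma adjusted p = 0.21). Cflar, which encodes the caspase-8 inhibitor FLIP, was 9.59 ± 0.17 (SD) in sham and 10.45 ± 0.28 in BD without passing. The 1 other probe set of Cflar had the opposite direction.

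Irf1, the interferon regulatory factor that STAT proteins induce, was 11.06, 11.4 and 11.41 in sham and 12.57, 12.8 and 12.6 in BD. It rose 2.58-fold (1.37 ± 0.17, limma adjusted p = 0.0041). It was the only called gene of the 22 interferon response genes, of which 20 had a higher mean in BD (51.0% of all genes did) and the median difference was 0.93, against 0 over all genes. The other members were spread widely within sham. Rsad2, an antiviral enzyme, was 9.57, 13.07 and 11.82 in sham and 13.23, 13.95 and 13.94 in BD (2.22 ± 0.63, limma adjusted p = 0.17). Gbp2, an interferon-induced GTPase, was 10.02, 11.87 and 10.18 against 12.28, 12.83 and 12.05, and Cmpk2, a mitochondrial nucleotide kinase, was 8.78, 11.57 and 10.67 against 11.61, 12.84 and 12.51. In these 3 genes every BD array was above every sham array, and sham replicate 2 was the highest sham array. The mean of the 22 genes was 9.78, 11.18 and 10.18 in sham and 10.82, 11.61 and 11.5 in BD, so that sham replicate 2 exceeded BD replicate 1.

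The promoter of Irf1 is shown because this gene is a known direct target of STAT proteins. It covers the 250 bases before the annotated start in RefSeq's GRCr8 table, written 5′ to 3′ in the direction of the gene. Capitals mark the letters TTCNNNGAA, the gamma-activated site, whose match begins 142 bases before the start.
Irf1, chr10:38417685-38417934, plus strand: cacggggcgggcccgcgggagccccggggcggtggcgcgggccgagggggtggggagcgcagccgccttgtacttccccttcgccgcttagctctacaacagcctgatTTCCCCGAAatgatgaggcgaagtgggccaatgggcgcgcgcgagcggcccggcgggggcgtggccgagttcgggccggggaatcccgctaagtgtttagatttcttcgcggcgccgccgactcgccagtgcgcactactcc
On either strand 7.52% of 27457 promoters of this length hold these letters, as do 2 of the 19 raised genes with a promoter in the table (Irf1 and Ajuba) and 1 of the 43 lowered genes (Tchh).

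Further raised genes belong to sensing and immune contact. Ripk2, the kinase that relays signals of the NOD receptors, was 8.86, 8.57 and 8.29 in sham and 11.04, 10.3 and 9.89 in BD, a rise of 3.57-fold (1.84 ± 0.29, limma adjusted p = 0.023). It was the only one of 16 innate sensing genes to be called, and their median difference was -0.02. Ccrl2, a chemerin-binding receptor that does not signal, was 10.39, 10.05 and 9.57 against 11.08, 11.57 and 11.17 (1.27 ± 0.23, limma adjusted p = 0.037). Cd40, the co-stimulatory receptor of antigen-presenting cells, was 8.72, 9.12 and 9.28 against 9.92, 9.68 and 9.79 (0.76 ± 0.14, limma adjusted p = 0.041). The groups did not overlap in these 3 genes, though for Cd40 the gap was 0.4 log2 units. Ripk2 was called in 3, Cd40 in 2 and Ccrl2 in 1 of the 6 fits that left out 1 compared array, and none of them with the cardiac covariate.

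A group of raised genes, brought together after their values were seen, act in cell contact, polarity and the Hippo pathway. Amotl2, an angiomotin that holds YAP at cell junctions, was 10.68, 10.73 and 11.12 in sham and 12.44, 11.89 and 12.19 in BD. It rose 2.51-fold (1.33 ± 0.15, limma adjusted p = 0.0037). Pard6b, a subunit of the PAR polarity complex, rose by 0.96 ± 0.17. Ajuba, a LIM protein that restrains the Hippo kinases, rose by 0.64 ± 0.11, and Sav1, the scaffold of those kinases, by 0.54 ± 0.09. For Sav1 1 of the other 2 probe sets had the opposite direction. The cytoskeletal proteins Pdlim3 (0.71 ± 0.13) and Rcsd1 (0.92 ± 0.15) rose as well, and so did Arhgap22 (0.62 ± 0.11) and Stard13 (0.62 ± 0.11). The epithelial keratin Krt19 rose by 0.49 ± 0.09. Of these genes Amotl2 was called in all 6 fits without 1 array and with the cardiac covariate. Pdlim3 was called in none of the 6 fits, and the others in 1 or 2.

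Other raised genes act in Wnt, TGF-beta and adrenergic signalling. Dact2, a cytoplasmic modulator of Wnt and TGF-beta signalling, was 8.84, 8.97 and 9.12 in sham and 11.01, 10.09 and 10.73 in BD, a rise of 3.1-fold (1.63 ± 0.24, limma adjusted p = 0.015). Fzd2, a Frizzled receptor for Wnt ligands, was 6.62, 6.57 and 6.48 against 8.1, 7.43 and 7.6, a rise of 2.22-fold (1.15 ± 0.22, limma adjusted p = 0.041). In both genes BD replicate 2 was the lowest of the BD arrays, yet above all sham arrays. Bmp6, a ligand of the TGF-beta family, was 10.25, 10.39 and 9.98 against 11.42, 11.06 and 11.03, and its 3 other probe sets had the same direction. It rose by 0.96 ± 0.15. Adrb1, the beta-1 adrenergic receptor, was 6.71, 6.62 and 6.4 in sham and 7.98, 7.14 and 7.67 in BD, a rise of 2.03-fold (1.02 ± 0.19, limma adjusted p = 0.04). Its sham mean of 6.58 lay close to 6.55, the 25th percentile of gene means. Dact2 was called with the cardiac covariate, and Fzd2, Bmp6 and Adrb1 were not.

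The remaining raised genes changed less than 2-fold. Klf6, a Krüppel-like transcription factor, rose by 0.44 ± 0.08 and was the only called one of 25 immediate early genes. Rab32, a GTPase of lysosome-related organelles, rose by 0.85 ± 0.13, and Timeless, a protein of the replication fork, by 0.78 ± 0.14. Mmp11, the matrix protease stromelysin, rose by 0.72 ± 0.12 and Gng11, a G protein gamma subunit, by 0.63 ± 0.12. Dapk2, a death-associated kinase, rose by 0.55 ± 0.1, although 1 of its other 2 probe sets had the opposite direction. Sh2d4a, Lysmd2, Myadm, Veph1 and the RNA-binding protein Rbpms rose by between 0.47 and 0.85.

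Genes that cyclic AMP is known to induce were among those that fell. Crem, which encodes cyclic AMP responsive repressors and activators, was 11.48, 11.61 and 11.98 in sham and 9.74, 10.01 and 10.75 in BD. It fell 2.87-fold (-1.52 ± 0.29, limma adjusted p = 0.04), and its 5 other probe sets had the same direction. Sik1, a salt-inducible kinase that restrains CREB coactivators, was 10.48, 10.43 and 10.32 against 9.17, 9.27 and 9.47, a fall of 2.15-fold (-1.11 ± 0.13, limma adjusted p = 0.0037). The groups were separated by 0.85 log2 units in Sik1 and by 0.73 in Crem. Sik1 was called in all 6 fits without 1 array and with the cardiac covariate. Crem was called in 1 of the 6 and not with the covariate (adjusted p = 0.084).

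Of the 25 measured cyclic AMP and catecholamine response genes 2 fell, 1 rose (Adrb1) and 22 did not pass. The median difference was -0.23, and in 10 members all BD arrays were below all sham arrays, against 7.74% of all genes. Nr4a2, an orphan nuclear receptor, was 8.77, 8.76 and 8.52 in sham and 8.13, 8.25 and 8.16 in BD (-0.5 ± 0.11, limma adjusted p = 0.083). Per1, a clock gene that cyclic AMP and glucocorticoids both induce, was 11.21, 10.88 and 11.13 against 10.26, 10.68 and 10.01 (-0.76 ± 0.2, limma adjusted p = 0.13). Their arrays did not overlap either. Ppargc1a, a mitochondrial coactivator, and Nr4a3, both named after their values were seen, differed by -1.19 and -0.93 without passing.

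Promoters of 4 lowered genes are shown for the letters TGACG, the core of the cyclic AMP response element. They were chosen after the values were seen, and each covers the 250 bases before the start in RefSeq's GRCr8 table, 5′ to 3′ in the direction of the gene. Capitals mark TGACG or, for a match on the other strand, CGTCA.
Sik1, chr20:9958647-9958896, minus strand: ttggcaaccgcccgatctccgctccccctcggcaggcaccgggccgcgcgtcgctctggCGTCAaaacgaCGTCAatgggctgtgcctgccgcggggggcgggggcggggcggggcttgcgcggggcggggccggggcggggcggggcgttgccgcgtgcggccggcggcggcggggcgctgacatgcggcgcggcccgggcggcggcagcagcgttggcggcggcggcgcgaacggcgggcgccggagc
Crem, chr17:58933816-58934065, plus strand: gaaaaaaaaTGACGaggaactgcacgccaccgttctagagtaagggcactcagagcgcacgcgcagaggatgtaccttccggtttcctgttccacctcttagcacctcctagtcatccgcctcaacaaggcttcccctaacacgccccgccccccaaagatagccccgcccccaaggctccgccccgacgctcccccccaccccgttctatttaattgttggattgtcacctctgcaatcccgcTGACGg
Dusp1, chr10:17184603-17184852, plus strand: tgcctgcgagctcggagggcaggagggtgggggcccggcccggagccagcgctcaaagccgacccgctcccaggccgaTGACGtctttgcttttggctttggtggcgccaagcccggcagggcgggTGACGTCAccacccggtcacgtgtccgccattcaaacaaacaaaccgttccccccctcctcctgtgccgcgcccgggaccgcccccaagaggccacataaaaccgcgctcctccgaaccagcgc
Cebpb, chr3:176816755-176817004, plus strand: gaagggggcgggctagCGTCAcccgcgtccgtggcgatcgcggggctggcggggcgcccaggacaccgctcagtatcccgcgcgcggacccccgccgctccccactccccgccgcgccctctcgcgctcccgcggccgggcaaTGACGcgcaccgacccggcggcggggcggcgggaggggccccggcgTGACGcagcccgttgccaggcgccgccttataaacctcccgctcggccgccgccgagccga
The matches begin 191 and 180 bases before the start in Sik1, and 241 and 6 bases before it in Crem. In Dusp1 they begin at 172, 124 and 121 bases, where the last pair overlap in the palindrome TGACGTCA. In Cebpb they begin at 234, 107 and 61 bases. On either strand TGACG is found in 19% of 27457 promoters, in 12 of the 43 lowered genes with a promoter in the table (27.9%) and in 2 of the 19 raised genes (10.5%). The full TGACGTCA is found in 1.7% of all promoters, and Dusp1 alone among the called genes holds it.

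Among glucocorticoid-responsive genes the called ones fell as well. Ddit4, which encodes the mTORC1 inhibitor REDD1, was 11.78, 11.51 and 10.87 in sham and 9.45, 9.77 and 9.28 in BD. It fell 3.7-fold (-1.89 ± 0.24, limma adjusted p = 0.0043). Dusp1, a phosphatase that switches off MAP kinases, was 13.66, 13.53 and 13.29 against 12.84, 12.83 and 12.79, a fall of 1.59-fold (-0.67 ± 0.1, limma adjusted p = 0.019). In BD its arrays differed by 0.05 log2 units at most. Of 13 listed dual specificity phosphatases and growth factor feedback genes (median difference 0) Dusp1 alone was called. The list does not hold Dusp9, a dual specificity phosphatase that was called and is given below. Of the 20 glucocorticoid receptor and target genes 2 fell, 0 rose and 18 did not pass, and the median difference was -0.21. Mt2A, a metallothionein, was 13.88, 14.2 and 13.77 in sham and 12.31, 13.43 and 13.05 in BD (-1.02 ± 0.25, limma adjusted p = 0.11). Errfi1, a feedback inhibitor of the EGF receptor, was 13.05, 13.3 and 12.78 against 11.9, 12.45 and 12.39 (-0.8 ± 0.16, limma adjusted p = 0.059). Sgk1, a kinase that promotes sodium uptake, differed the other way, from 11.66, 11.73 and 11.33 to 12, 12.38 and 12.4 (0.69 ± 0.17, limma adjusted p = 0.11). Rasd1, a Ras-like GTPase first described as induced by dexamethasone, was in no list. It was 9.46, 9.4 and 9.82 in sham and 7.68, 8.18 and 8.61 in BD, and fell 2.65-fold (-1.4 ± 0.24, limma adjusted p = 0.032). Ddit4 was called in all 6 fits without 1 array and with the cardiac covariate. Dusp1 and Rasd1 were each called in 2 of the 6 and not with the covariate. Without BD replicate 2 the glucocorticoid list had 6 lowered members, where 1.23% of all genes were lowered (1.6% were called in either direction). That array is the one that stood apart on the cardiac and adipocyte markers, and their part in this count was not tested. With the cardiac covariate 1 member of the list was called.

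Signalling brakes included the called gene with the largest fall. Rgs1, which shortens signalling by G proteins and is known from lymphocytes, was 10, 10.09 and 10.03 in sham and 7.34, 7.94 and 8.04 in BD. It fell 4.81-fold (-2.27 ± 0.2, limma adjusted p = 0.0012), and it was called in all 6 fits without 1 array and with either tissue covariate. Of 16 regulators of G protein signalling it alone was called. Rgs2 was 11.82, 12.06 and 11.88 against 11.15, 11.23 and 11.19 (-0.73 ± 0.2, limma adjusted p = 0.16), and Rgs3 was 9.52, 9.44 and 9.57 against 10.34, 9.99 and 10.43 (0.74 ± 0.22, limma adjusted p = 0.18). The family thus had members on both sides, with a median difference of 0.03. Dusp9, a phosphatase of ERK kinases, was 7.1, 6.87 and 7.85 against 5.13, 5.23 and 5.51 and fell 3.95-fold (-1.98 ± 0.29, limma adjusted p = 0.015). Arrdc3, an arrestin-related adaptor that brings beta-adrenergic receptors to endosomes, was 13.08, 13.05 and 13.02 in sham and 11.68, 12.03 and 12.21 in BD. It fell 2.11-fold (-1.08 ± 0.13, limma adjusted p = 0.0041).

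Genes of opioid and cannabinoid signalling also fell. Penk encodes proenkephalin, the precursor of opioid peptides, and was 9.7, 9.84 and 9.75 in sham and 7.57, 8.56 and 8.15 in BD. It fell 3.18-fold (-1.67 ± 0.21, limma adjusted p = 0.0043). Cnr1, the cannabinoid receptor of the nervous system and of fat, was 9.19, 9.35 and 8.56 against 7.8, 8.2 and 7.75, a fall of 2.17-fold (-1.12 ± 0.2, limma adjusted p = 0.037). Penk was called in all 6 fits without 1 array and with the cardiac covariate, and Cnr1 in 2 of the 6 and not with it. The groups were apart in both genes, by 1.14 log2 units for Penk and 0.36 for Cnr1.

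Of the listed cytokines and chemokines the only called gene fell. Csf3, the granulocyte colony-stimulating factor, was 8.04, 8.45 and 9.3 in sham and 6.79, 7.05 and 6.74 in BD. It fell 3.33-fold (-1.74 ± 0.32, limma adjusted p = 0.037) and was called in 2 of the 6 fits without 1 array and not with the cardiac covariate. It was the only called one of 32 cytokines and chemokines, of which 22 had a higher mean in BD (51.0% of all genes did). Cxcl10, an interferon-induced chemokine for T cells, was 8.64, 11.71 and 9.01 in sham and 11.54, 13.63 and 13.08 in BD (2.96 ± 0.7, limma adjusted p = 0.097). Cxcl9, of the same function, was 6.07, 7.46 and 6.16 against 7.71, 9.76 and 8.3 (2.03 ± 0.49, limma adjusted p = 0.11). In both genes sham replicate 2 was the highest sham array, and for Cxcl10 it exceeded BD replicate 1. Csf1, the growth factor of macrophages, was 9.68, 9.6 and 9.69 against 10.36, 10.47 and 10.12, and Il10, an anti-inflammatory cytokine, was 5.13, 5.33 and 5.2 against 5.64, 6.1 and 5.94, at a dim level. Neither passed, with limma adjusted p of 0.076 and 0.082. Named after their values were seen, Il6 and Ccl20 differed by -1.43 and -2.36 and Tnf and Il1b by 1.28 and 1.05, also without passing.

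Il6r, the receptor subunit that binds interleukin 6, was 11.43, 11.15 and 11.11 in sham and 10.14, 10.44 and 10.46 in BD. It fell 1.84-fold (-0.88 ± 0.11, limma adjusted p = 0.0043), and none of the other 16 measured genes of the SOCS and STAT3 pathway was called. Cebpb, a transcription factor of the acute phase response, was 12.97, 12.57 and 13.23 against 11.59, 11.67 and 11.8, a fall of 2.36-fold (-1.24 ± 0.15, limma adjusted p = 0.0039). Both genes were called in all 6 fits without 1 array and with the cardiac covariate. Plaur, the receptor of urokinase, was 8.82, 9.02 and 8.43 against 7.75, 7.53 and 7.74 and fell 2.12-fold (-1.08 ± 0.19, limma adjusted p = 0.035), while its 1 other probe set had the opposite direction. Clec10a, a galactose-binding lectin of macrophages, fell by 0.99 ± 0.19 on the log2 scale (limma adjusted p = 0.048).

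Adhesion molecules of the endothelium did not pass the test, although their arrays were separated. Icam1, the leukocyte adhesion molecule that NF-kappa-B induces, was 12.53, 12.62 and 12.08 in sham and 13.37, 13.21 and 13.08 in BD (0.81 ± 0.18, limma adjusted p = 0.076). Icam2 was 11.26, 11.12 and 10.95 against 11.75, 11.6 and 11.7 (0.57 ± 0.12, limma adjusted p = 0.075), and Vcam1 was 12.39, 12.16 and 12.52 against 13.05, 12.9 and 12.59 (0.49 ± 0.15, limma adjusted p = 0.21). F3, tissue factor, was 11.98, 11.83 and 11.89 against 11.19, 11.7 and 11.19, in the other direction. Of the 20 genes of endothelial activation and coagulation, Plaur was the only one called. Of 19 NF-kappa-B subunits, inhibitors and targets 0 were called by limma (2 had an unadjusted p under 0.05), and the median difference was 0.2. In 7 of them the BD arrays were all above the sham arrays, against 7.95% of all genes. None of the 20 endothelial identity genes was called by limma either (8 had an unadjusted p under 0.05). Such an unadjusted limma p was found in 1566 of all 14217 genes. Sox18, an endothelial transcription factor, was 8.61, 8.04 and 8.05 against 9.81, 8.81 and 9.04, and Flt1, a VEGF receptor, was 11.13, 11.21 and 11.3 against 10.55, 10.61 and 10.8. The 2 other probe sets of Flt1 had the opposite direction.

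Genes of amino acid and insulin metabolism fell by less than 2-fold. Slc38a2, a transporter of small neutral amino acids, was 12.16, 12.05 and 12.13 in sham and 11.43, 11.28 and 11.27 in BD. It fell 1.73-fold (-0.79 ± 0.1, limma adjusted p = 0.0049). Slc7a5, a transporter of large neutral amino acids, was 8.85, 8.59 and 8.78 against 7.98, 7.9 and 8.05 (-0.76 ± 0.14, limma adjusted p = 0.037). The first was called in all 6 fits without 1 array, the second in none. Mat2a, which makes S-adenosylmethionine, fell by 0.59 ± 0.09 on the log2 scale, and Irs2, an adaptor of the insulin receptor, fell by 0.78 ± 0.14. Of 17 genes of the integrated stress response and amino acid supply, Slc7a5 and Cebpb fell and 0 rose. Their known inducer Atf4 differed by 0, and Asns by -0.14.

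Lowered genes of matrix and cell surface included 2 proteoglycan-cleaving proteases. Adamts9 was 11.48, 11.87 and 11.7 in sham and 10.27, 10.33 and 10.64 in BD, and fell 2.41-fold (-1.27 ± 0.18, limma adjusted p = 0.012); its 1 other probe set had the opposite direction. Adamts1 was 12.1, 12 and 12.47 against 11.45, 11.03 and 11.25, a fall of 1.93-fold (-0.95 ± 0.15, limma adjusted p = 0.025). The related Adamts4 was 8.08, 8.8 and 9.93 against 7.36, 7.28 and 7.87 and did not pass (limma adjusted p = 0.23). Both called proteases were also called with the cardiac covariate. They were the only called genes in a list of 17 matrix proteases and inhibitors, which does not hold the raised Mmp11. Cemip2, a hyaluronidase of the cell surface, was 10.9, 11.33 and 11.16 against 9.67, 9.91 and 9.84 and fell 2.5-fold (-1.32 ± 0.24, limma adjusted p = 0.037). Hs3st1, a sulfotransferase of heparan sulfate, was 8.55, 8.73 and 8.88 against 6.96, 7.97 and 7.52 and fell 2.36-fold (-1.24 ± 0.2, limma adjusted p = 0.026). Cemip2 was called in 1 and Hs3st1 in 2 of the 6 fits without 1 array. Rnd3 fell by 0.97 ± 0.12, and Sema6b, a semaphorin of axon guidance, by 0.99 ± 0.13.

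Other large falls were in genes of varied function. Fam110c was 7.78, 7.74 and 8.03 in sham and 5.51, 6.21 and 5.38 in BD and fell 4.44-fold (-2.15 ± 0.25, limma adjusted p = 0.0037). Prss22, an epithelial serine protease, was 8.85, 8.36 and 9.35 against 6.58, 7.29 and 6.69 and fell 4-fold (-2 ± 0.25, limma adjusted p = 0.0041). In both genes BD replicate 2 was the highest of the BD arrays. Olah, a thioesterase that releases fatty acids from fatty acid synthase, was 8.05, 8.42 and 8.42 against 7.25, 7.19 and 7.23, and fell 2.1-fold (-1.07 ± 0.12, limma adjusted p = 0.0037). Coq10b, a coenzyme Q binding protein of mitochondria, was 11.79, 11.75 and 11.82 against 10.39, 10.8 and 10.33, a fall of 2.43-fold (-1.28 ± 0.16, limma adjusted p = 0.0043). All 4 genes were called in all 6 fits without 1 array and with the cardiac covariate, and Olah also with the adipocyte covariate. Fam222a fell by 1.67 ± 0.19, LOC102554570 by 1.47 ± 0.18 and Fam43a by 1.28 ± 0.15 on the log2 scale, and each of these was called in all 6 such fits.

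Lowered transcriptional regulators were Foxq1, a forkhead factor (-1.26 ± 0.2), Tle1, a Groucho corepressor (-1.09 ± 0.2), Id1, an inhibitor of bHLH factors (-0.81 ± 0.14), and Irx1, an Iroquois homeobox factor of lung epithelium (-0.68 ± 0.13). The 1 other probe set of Irx1 had the opposite direction. Taf5, a subunit of TFIID, fell by 0.98 ± 0.16. Foxq1 was called with the cardiac covariate, and the other 4 were not. Lipid genes among the lowered were Mfsd2a, a transporter of lysophospholipids (-0.94 ± 0.15), Etnk1, an ethanolamine kinase (-0.74 ± 0.12), Cln8 (-0.98 ± 0.19) and Abcd2, a peroxisomal transporter (-0.61 ± 0.12). Abcd2, Coch and Prss30 had both group means under the 25th percentile of gene means, 6.55, so their falls rest on dim signals. The remaining lowered genes were LOC102555465, S100pbp, Igsf8, B4galt4, Tchh, Kin, Ipmk, Wbp1l, Iba57, Asnsd1 and Adamtsl2, with differences from -1.09 to -0.53. Of these Wbp1l (-0.7 ± 0.08, limma adjusted p = 0.0037) was called in all 6 fits without 1 array.

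**Figure D3:**
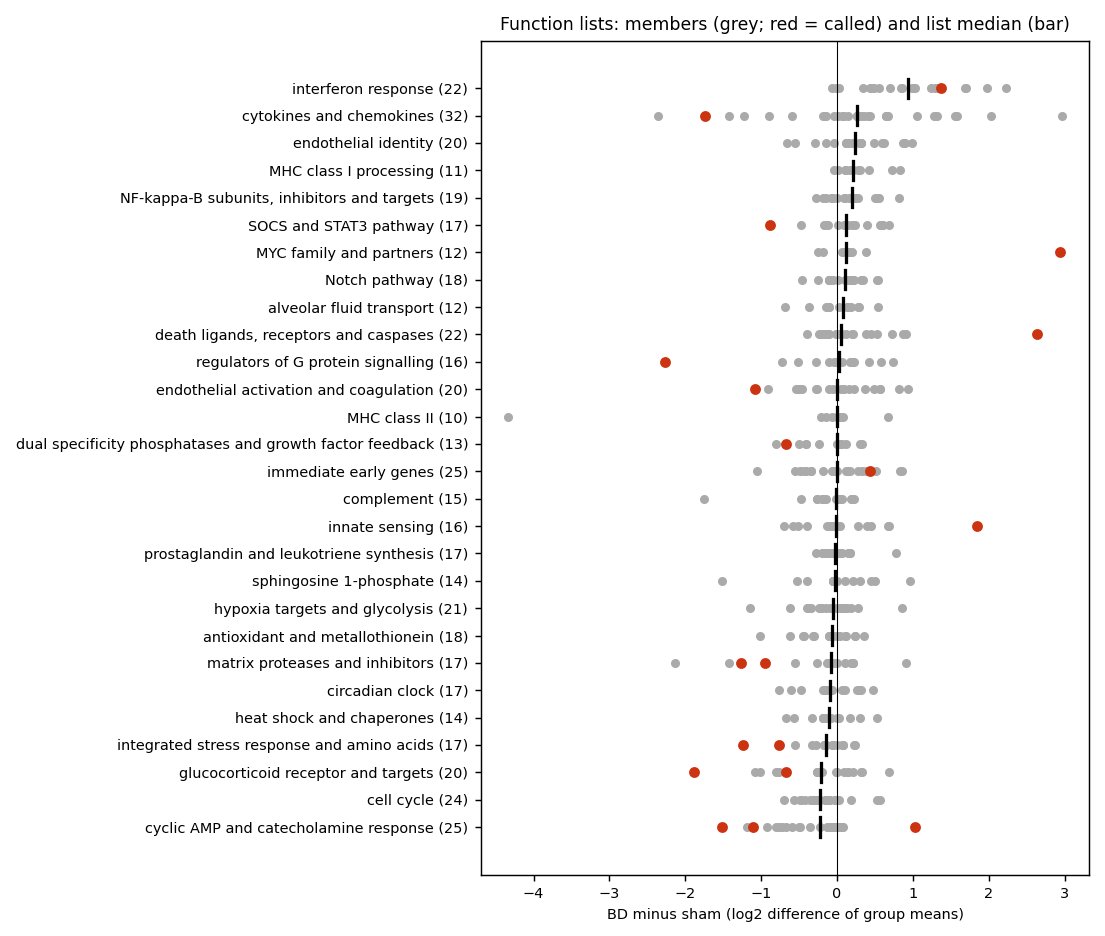
Log2 difference of BD minus sham (horizontal axis) for each measured gene of 28 function lists, 1 line per list with its number of genes; grey points were not called, red points were called, and the black bar is the list median. Interferon response genes had the highest median, 0.93, with 1 called gene; all other list medians lay between -0.23 and 0.26.

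Several lists held no called gene. In hypoxia targets and glycolysis (21 genes, median -0.06) Pfkfb3, a glycolytic regulator, was 11.85, 11.88 and 11.72 in sham and 10.4, 11.4 and 10.21 in BD (-1.15 ± 0.25, limma adjusted p = 0.076). In the same list Adm, the vasodilator adrenomedullin, was 8.48, 8.54 and 8.64 against 9.63, 9.27 and 9.3 (0.85 ± 0.17, limma adjusted p = 0.051). Both were separated between the groups, in opposite directions. In the sphingosine 1-phosphate list (14 genes, median -0.03) Sphk1, the kinase that makes the lipid, was 9.33, 9.37 and 9.77 against 7.46, 8.27 and 8.2 (-1.51 ± 0.41, limma adjusted p = 0.14). Spns2, its endothelial exporter, was 9.07, 8.76 and 9.04 against 10.4, 9.59 and 9.76 (0.96 ± 0.21, limma adjusted p = 0.078). S1pr1, the receptor that SEW-2871 targets, differed by -0.06. In alveolar fluid transport (12 genes, median 0.08) the water channel Aqp4 was 11.74, 12.02 and 11.21 against 10.78, 11.16 and 10.97 without passing. In the cell cycle list 20 of 24 genes had a lower mean in BD, with a median of -0.23, while 51.0% of all genes had a higher mean. Heat shock, antioxidant, Notch, clock, complement, prostaglandin and MHC class I genes had medians between -0.11 and 0.21. Among MHC class II genes (10 genes, median 0) RT1-Bb was 12.43, 12.7 and 12.17 in sham and 5.9, 5.76 and 12.66 in BD, so that BD replicates 1 and 2 stood apart from the other 4 arrays.

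Markers of blood cells were not called. The 11 neutrophil markers had a median difference of 0.21, the 10 macrophage and monocyte markers 0.03, the 13 T lymphocyte markers 0.07 and the 9 NK and cytotoxic markers 0.22. The 7 platelet markers had a median of 0.37, and Pf4, a platelet chemokine, was 9.55, 9.48 and 10.04 against 10.27, 10.13 and 10.45. Hbb, the beta globin of red cells, was 12.87, 10.29 and 11.23 in sham and 13.28, 12.68 and 12.91 in BD, with overlap. Median differences were 0.48 for 4 erythroid, -0.08 for 5 B lymphocyte, -0.27 for 13 mast cell and basophil, 0.15 for 8 smooth muscle, -0.02 for 8 skeletal muscle and -0.37 for 4 ciliated cell markers. They were -1.55 for cardiac muscle, -1.76 for adipocytes, -1.35 for airway secretory cells and 0.15 for alveolar type 2 cells. The 7 alveolar type 1 markers all had a higher mean in BD (51.0% of all genes did), with a median of 0.29. Among them Pdpn, podoplanin, was 12.04, 12.15 and 11.93 against 12.58, 12.34 and 12.49 (0.43 ± 0.09, limma adjusted p = 0.073).

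The same comparison in animals given SEW-2871 (BD/SEW against SEW) takes its means from other arrays than BD against sham. There the cardiac means of the groups overlapped, at 5.99 to 7.34 in SEW and 6.12 to 7.86 in BD/SEW, as did the adipocyte means. All 30 genes raised in BD had a higher mean in BD/SEW than in SEW, as had 48.5% of all genes, and 21 of them rose by the same test (70%, against 4.75% of all genes). Of the 54 lowered genes 47 had a lower mean in BD/SEW, and 34 fell (63%, against 5.04% of all genes). In a fit of those 6 arrays alone 20 and 33 passed. The median difference of the raised genes was 0.77 without the agonist and 0.63 with it, and that of the lowered genes -0.99 and -0.7. Mycn rose by 3.79 ± 0.32 and Irf1 by 2.44 ± 0.17, and Rgs1 fell by 2.09 ± 0.2 on the log2 scale. Sik1 (-1.12 ± 0.13), Ddit4 (-1.61 ± 0.24), Crem (-1.1 ± 0.29) and Dusp1 (-0.68 ± 0.1) fell there too. Of the genes given with cell contact and the Hippo pathway, Pard6b, Sav1, Pdlim3 and Arhgap22 rose there. Amotl2 (0.48 ± 0.15), Rcsd1 (0.2 ± 0.15), Krt19 (0.18 ± 0.09), Ajuba (0.13 ± 0.11) and Stard13 (0.06 ± 0.11) were not called. Among the lowered genes Penk (-0.68 ± 0.21), Adamts1 (-0.35 ± 0.15), Clec10a (0.25 ± 0.19) and Cemip2 (0.07 ± 0.24) were not called there either.

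**Figure D4:**
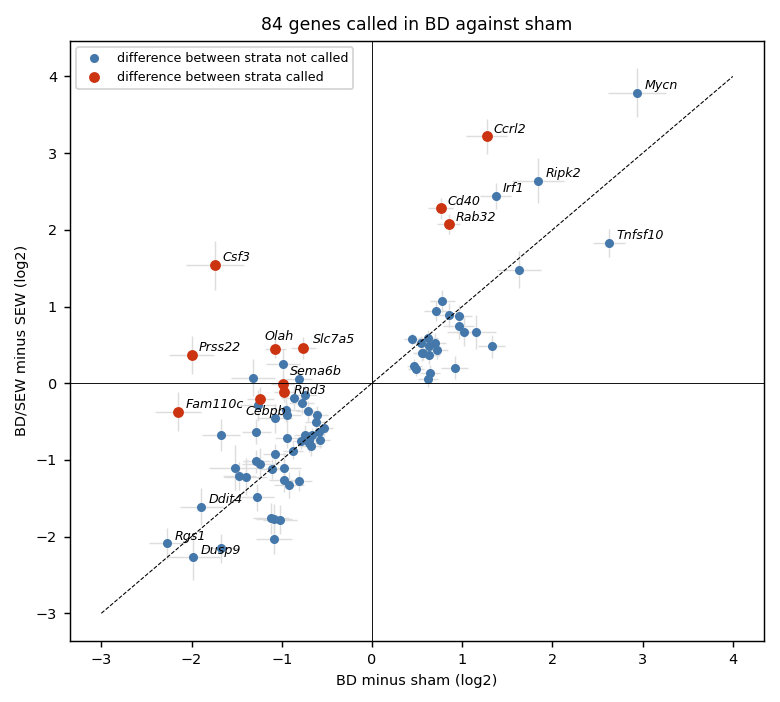
The 84 genes called in BD against sham, with the log2 difference of BD minus sham on the horizontal axis and of BD/SEW minus SEW on the vertical axis; grey lines are ± 1 SE and the dashed line marks equal differences. Red points are the 11 genes in which the difference between both contrasts was called; all 30 raised genes lie above 0 on the vertical axis and 47 of the 54 lowered genes below it, and Csf3 and Olah were called in opposite directions.

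A test of the difference between both contrasts (limma interaction) called 11 of the 84 genes, 3 raised and 8 lowered, against 0.95% of all genes. Cd40, Ccrl2 and Rab32 rose more with the agonist. Cd40 was 8.09, 7.83 and 7.88 in SEW and 10.3, 10.22 and 10.11 in BD/SEW, a larger difference by 1.52 ± 0.2 (limma adjusted p = 0.0077). Its SEW arrays were all below its sham arrays, and so were those of Ccrl2 and Rab32. The SEW means of Ccrl2 and Rab32 were 1.25 and 1 below their sham means. Csf3, which fell without the agonist, was 6.44, 6.08 and 5.8 in SEW and 8.19, 7.57 and 7.19 in BD/SEW and rose there by 1.54 ± 0.32 (limma adjusted p = 0.0097). Its SEW arrays too were below all sham arrays. Olah rose by 0.45 ± 0.12 with the agonist (limma adjusted p = 0.033). The SEW arrays of Olah were likewise all below its sham arrays, with means of 6.96 and 8.3. Cebpb, Fam110c, Prss22, Rnd3, Sema6b and Slc7a5 were not called in BD/SEW against SEW, and their SEW means were from 0.6 to 2.43 below their sham means.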

How the data were processed

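Total RNA (6 ug per array) was extracted with Trizol and labelled as biotinylated cRNA, per the labels' protocols. The deposited values are log2 probe set levels, and the submitters' processing notes list MAS5, RMA and affy with neither version nor role. The 31042 probe sets held 0 control probe sets, and the arrays differed by at most 0.22 at any rank (medians 7.34 to 7.41). Symbols came from the platform annotation: 20826 probe sets had 1 symbol, 436 several and 9780 none, and 20758 matched the RefSeq table of GRCr8. For 4525 genes with several probe sets the one with the highest mean was used. The number of arrays limits the precision.

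A mean per group was fitted over all 12 arrays with limma 3.58.1 in R 4.3.3 (trended moderated variance, two-sided, Benjamini-Hochberg over 14217 genes, adjusted p under 0.05). The fit was tested on simulated data with independent noise, of the same spread in every array. Those data held no tissue transcripts shared by some arrays, so that test does not bear on them. The members and the 28 function and 16 cell type lists (644 of 725 genes measured) were chosen with earlier results of these data known. Every called gene could be named, up to 20 per direction with all array values, and up to 5 members per list by call and then by p. Groupings of called genes that are in no list, and the promoters shown (62 of 84 called genes had one in the table), were chosen after the values were seen.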

Additional observations from a re-analysis of the deposited data

Results flagged for a closer look

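In 24 of the genes that the text names or the rule for named genes takes, the brain-death difference was not the same in animals given SEW-2871 as in animals without it (limma interaction over all 14217 genes, n = 3 per group). Over all genes the interaction called 135 (0.95%). The 24 come from genes taken partly by their p in BD against sham. The number of genes screened is not given, so no share is set beside that of all genes. The brain-death difference was more positive with the agonist in all 24 but Dusp7. Of the genes raised in BD these were Ccrl2 (by 1.95 ± 0.33 SE on the log2 scale, limma adjusted p = 0.02), Rab32 (1.22 ± 0.19, adjusted p = 0.014) and Cd40 (1.52 ± 0.2, adjusted p = 0.0077). Among the lowered genes Csf3 differed by 3.28 ± 0.45 (adjusted p = 0.0078), Prss22 by 2.37 ± 0.35 (adjusted p = 0.011) and Fam110c by 1.78 ± 0.35 (adjusted p = 0.039). Olah differed by 1.52 ± 0.17 (adjusted p = 0.0029), Slc7a5 by 1.22 ± 0.19 (adjusted p = 0.016) and Cebpb by 1.04 ± 0.21 (adjusted p = 0.042). Sema6b differed by 0.98 ± 0.18 (adjusted p = 0.036) and Rnd3 by 0.85 ± 0.17 (adjusted p = 0.046). In each of these raised and lowered genes the SEW arrays were all below the sham arrays.

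The other genes were not called in BD against sham. Zc3h12a, an RNase that degrades cytokine transcripts, averaged 9.76 in the sham and 10.31 in the BD arrays, and 7.28 and 10.83 in SEW and BD/SEW, a difference of 3 ± 0.38 between the contrasts (limma adjusted p = 0.0056). Cxcl10 had means of 9.79, 12.75, 5.43 and 13.19 in the same order (4.79 ± 0.99, adjusted p = 0.05 after rounding and under the threshold). Nfkb1, the p105 subunit of NF-kappa-B, differed by 1.01 ± 0.12 (adjusted p = 0.005), Bcl3, a nuclear cofactor of it, by 2.08 ± 0.32 (adjusted p = 0.012), and Vcam1 by 1.43 ± 0.21 (adjusted p = 0.011). Cflar differed by 2.09 ± 0.38 (adjusted p = 0.034) and Zfp36, an RNA-binding protein that destabilises cytokine transcripts, by 0.95 ± 0.15 (adjusted p = 0.014). Hk1, a hexokinase, differed by 1.55 ± 0.22 (adjusted p = 0.0098), Camp, a neutrophil antimicrobial peptide, by 3.4 ± 0.65 (adjusted p = 0.037), and Dusp7, an ERK phosphatase, by -0.72 ± 0.14 (adjusted p = 0.037). Mcpt8, a basophil protease of a multigene family that can share probes, differed by 2.4 ± 0.15 (adjusted p = 6.9e-05) and averaged 5.9, 5.63, 5.23 and 7.36 in sham, BD, SEW and BD/SEW. Il6 and Tnf, named after their values were seen, differed by 5.35 ± 1.05 and 2.47 ± 0.48 (adjusted p = 0.039 for each).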

How the results depend on the processing

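The 84 calls (30 raised, 54 lowered) were 13 (3 and 10) with the 6 compared arrays only, 383 (159 and 224) with array weights, 28 (5 and 23) with the cardiac covariate and 11 (8 and 3) with the adipocyte covariate. Over every probe set 134 were called, 94 of them lowered. Leaving out 1 array gave 26 to 227 genes, 4 to 52 raised and 22 to 175 lowered. The interaction called 135 genes, 464 with array weights, 82 with the cardiac covariate, and 38 to 235 without 1 of the 12 arrays. It called 69 without sham replicate 2, 48 without BD replicate 1, 79, 235 and 72 without SEW replicates 1, 2 and 3, and 44 and 38 without BD/SEW replicates 1 and 2. The cause was not tested. Counts from 64 to 85 were found with the mean over probe sets, dimmer genes left out, arrays centred, no variance trend and the replicate block. BD/SEW against SEW called 1392 genes, 1298 with the cardiac covariate and 1155 on its own 6 arrays, both chosen after seeing the data. No called gene changed direction under any of these alternatives. All 20 cardiac markers that were lower in BD, none of them called, turned to between 0.54 and 3.86 with the adipocyte covariate, Myh6 to 1.1 and Myl7 to 0.9 among them. Among other uncalled genes near 0, S1pr1 turned to 0.05 with the mean over probe sets, Scgb1a1 to -0.03 with the adipocyte covariate and Atf4 to -0.04 with either covariate. Without 1 array Scgb1a1 lay between -0.02 and 0.04 and Atf4 between -0.01 and 0.03. Sham and BD arrays with the same replicate number deviated together at r of 0.01, 0.09 and 0.38, so the numbers were not taken to pair them. With the replicate number as a block 69 genes were called (26 raised, 43 lowered), 55 of them among the 84, and the interaction called 146. Sham replicate 3 had the lowest array weight (0.25).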

Other observations

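In several inflammatory lists the sham arrays lay nearer to BD than to SEW. The mean of the 19 NF-kappa-B genes was 10.9, 10.85 and 10.85 in sham, 11.05, 11.01 and 11.06 in BD, 9.52, 10 and 9.27 in SEW and 11.54, 11.4 and 11.22 in BD/SEW. The mean of the 32 cytokines and chemokines was 8.81, 9.07 and 8.96 in sham, 8.96, 9.5 and 9.16 in BD, 7.75, 8.44 and 7.61 in SEW and 9.84, 9.78 and 9.47 in BD/SEW. Sham and SEW differ in the agonist and possibly in the operation, which cannot be told apart. They also differ in cardiac means (9.13 to 10.11 in sham, 5.99 to 7.34 in SEW), adipocyte means (8.71 to 9.62 and 6.92 to 7.23) and airway secretory means (11.45 to 11.57 and 8.07 to 10.22), and the part of these markers was not tested. In the NF-kappa-B list 0 genes were called in BD against sham by limma (2 at an unadjusted p under 0.05, as were 1566 of all 14217 genes). In BD/SEW against SEW 16 genes of this list rose, where 4.75% of all genes rose. In the cytokine list 17 rose there and 0 fell, where 5.04% of all genes fell. The cyclic AMP list did not show this order, with means of 9.14, 9.13 and 9.25 in sham and 9.09, 8.9 and 9.03 in SEW, and of 8.78, 8.81 and 8.83 in BD and 8.82, 8.74 and 8.73 in BD/SEW.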
